A study of Mus musculus with 6 samples.

Results

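The Myc, Max and Mxd network was described gene by gene in mouse MA9 leukaemia cells, a name commonly given to leukaemias that carry the fusion gene MLL-AF9. Its 10 members were chosen by symbol among the 49585 genes of the count table: the MYC family (Myc, Mycn, Mycl), the partner Max, the antagonists Mxd1, Mxd3, Mxd4, Mxi1 and Mnt, and Mlx. Gata2 KO cells (Gata2 -/-, named Cre in the sample descriptions) were compared with Gata2 f/f cells, whose alleles are flanked by loxP sites. Every Gata2 KO sample also carries the Cre label, so effects of Cre and of the deletion cannot be told apart. All 6 cultures, 3 per genotype and numbered 1 to 3, came from bone marrow leukaemia cells grown with IL-3, IL-6 and SCF and were treated with Nutlin at 5 uM over 18 h. Nutlin blocks the binding of MDM2 to p53. Untreated cultures were not analysed here, and the labels do not say what drove Cre, how old the animals were or whether the numbered samples came from separate leukaemias.

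MYC proteins are helix-loop-helix leucine zipper transcription factors that bind DNA only as heterodimers with MAX, at the E-box sequence CACGTG, and there activate genes of growth and proliferation. The MXD proteins and MNT compete for MAX and for the same sites and recruit SIN3 and histone deacetylases, which silences those genes. MLX is a MAX-like protein that pairs with MXD1, MXD4, MNT and the glucose-sensing factors MondoA (Mlxip) and ChREBP (Mlxipl). In myeloid cells, MYC is high in dividing progenitors, and MXD1 is induced as granulocytes and monocytes mature.

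Poly(A) RNA was counted per gene, and total counts per library ran from 18651102 to 26440960 in Gata2 KO and from 17138687 to 25158033 in Gata2 f/f. The members took 0.0549% to 0.0725% of the counts in Gata2 KO and 0.0589% to 0.0608% in Gata2 f/f. Gata2 itself had 114, 797 and 103 counts in Gata2 KO 1, 2 and 3, against 590, 500 and 463 counts in Gata2 f/f 1, 2 and 3. In the library labelled Gata2 KO 2 the targeted gene thus contradicts the label, and each tested member's genotype difference is given below with and without it. Genes listed as leukaemia cell markers were detected throughout: all 7 of Ptprc, Mpo, Elane, Prtn3, Ctsg, Hoxa9 and Meis1 had counts in all 6 libraries. Both libraries numbered 3 stood apart. Monocyte and macrophage markers, 11 of 11 detected in every library, summed to 1819, 1347 and 7069 CPM (counts scaled to the TMM-normalised library size) in Gata2 KO 1, 2 and 3 and to 515, 440.4 and 5219 CPM in Gata2 f/f 1, 2 and 3. The 12 late neutrophil markers summed to 1894, 629 and 3918 CPM in Gata2 KO and to 297, 589 and 2087 CPM in Gata2 f/f. The 7 leukaemia cell markers were not steady. They summed to 8242, 5632 and 4587 CPM in Gata2 KO and to 4871, 7008 and 3680 CPM in Gata2 f/f, lowest in number 3 of each genotype. In bulk RNA, fewer cells of a type and less RNA per cell cannot be told apart. B and T cell markers summed to at most 7.90 CPM in any library, erythroid markers to at most 7.65 CPM and megakaryocyte markers to at most 26.9 CPM. The 6 stromal and endothelial markers summed to 16.0 to 48.2 CPM in Gata2 KO and 10.1 to 35.1 CPM in Gata2 f/f.

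Across the network, transcripts of 3 antagonists, Mxd1, Mxd3 and Mxd4, were higher in the Gata2 KO library of each number. Over the 3 libraries a group they were higher by 0.59 to 0.73 on the log2 scale. Mlx, which is not an antagonist, was also higher in each number (0.30), and the antagonists Mxi1 (0.11) and Mnt (0.14) were not. Myc and Max had log2 fold changes of -0.12 and -0.076. None of these differences passed edgeR's quasi-likelihood test with Benjamini-Hochberg adjustment over the 13744 genes tested. Of the 10 members, 8 had counts high enough to be tested, and 0 of the 8 were called at an adjusted p of 0.05. The share called among all genes tested was 0.0%. At an unadjusted p under 0.05 the same fit marked 1 member, Mxd1 (unadjusted p = 0.0347), against 0.728% of all genes that were marked as higher in Gata2 KO. DESeq2 with the library number as a block called 0 members and 1.62% of all genes. The 8 tested members had a median log2 fold change of 0.22, and 6 of them had positive values. Leaving out Gata2 KO 1 gave 4 positive values and a median of 0.14, and leaving out Gata2 f/f 1 gave 5 and 0.11. Over all genes tested the median was 0.021, and 52.5% of values were positive.

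**Figure D1:**
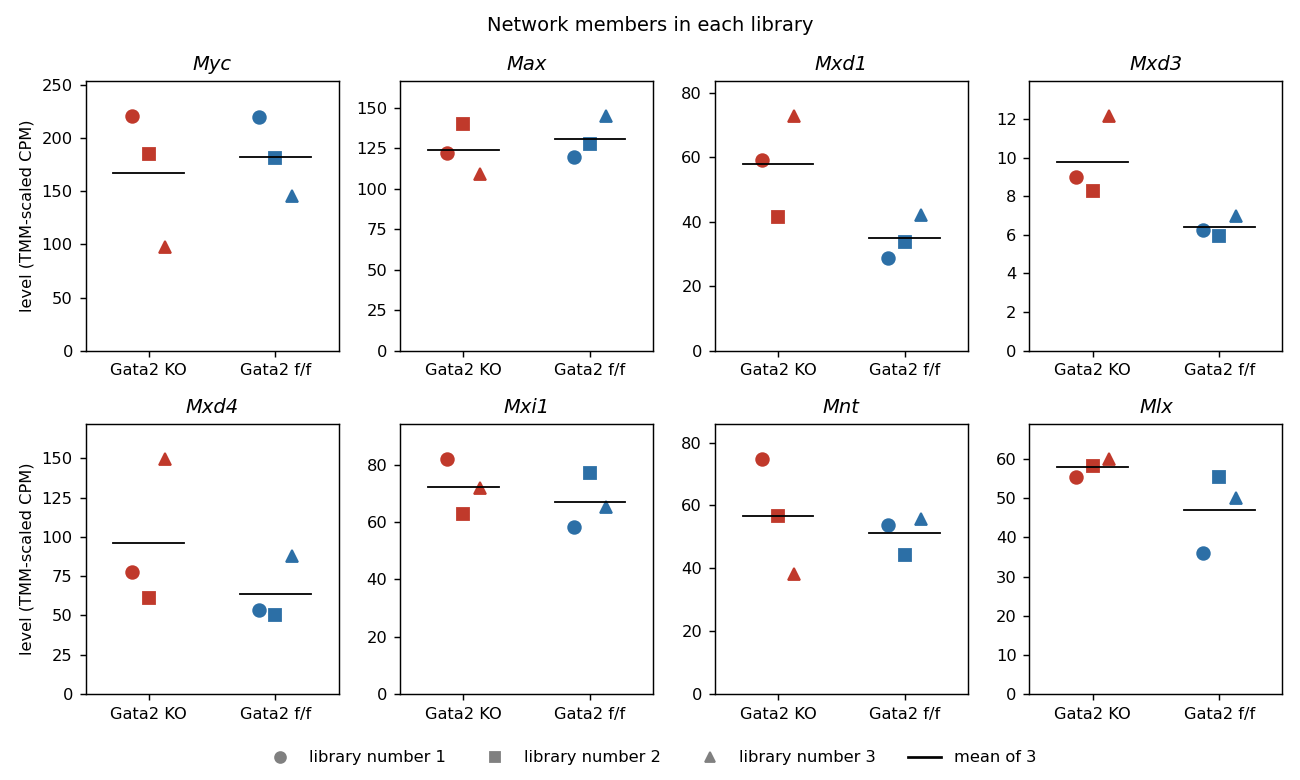
Level of each of the 8 tested members in each library, in CPM of the TMM-scaled library, with Gata2 KO left and Gata2 f/f right; symbols give the library number and bars the mean of 3. Mxd3 and Mlx are the members whose genotype ranges do not overlap, and Myc spans 97.1 to 220.5 CPM within Gata2 KO.

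Myc, the MYC gene of most dividing blood cells, was the only MYC family gene above the low-count filter. Myc (ENSMUSG00000022346.15; GRCm38 chromosome 15, 61985391 to 61990374, plus strand, protein-coding) had 220.5, 185 and 97.1 CPM in Gata2 KO 1, 2 and 3, against 219.5, 181 and 145 CPM in Gata2 f/f 1, 2 and 3. The libraries numbered 1 and 2 lay close together between genotypes, and Gata2 KO 3 was the lowest of the 6. The means were 167 ± 63.5 CPM in Gata2 KO and 182 ± 37.2 CPM in Gata2 f/f (SD, n = 3 each). The log2 fold change was -0.12 ± 0.34 (SE; edgeR, adjusted p = 1.00) with all libraries and -0.20 ± 0.41 without the library labelled Gata2 KO 2. It was 0.13 without Gata2 KO 3, so 1 library sets its sign. Between libraries of the same number the log2 differences were 0.0065, 0.030 and -0.58 for numbers 1, 2 and 3.

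Mycn, the MYC gene of neural and early progenitor cells, and Mycl, known from dendritic cells and lung cancer, were near the limit of detection. Mycn (ENSMUSG00000037169.14; chromosome 12, 12936093 to 12941914, minus strand) had 3, 1 and 1 counts in Gata2 KO 1, 2 and 3, against 8, 0 and 11 counts in Gata2 f/f. Mycl (ENSMUSG00000028654.13; chromosome 4, 122995652 to 123002485, plus strand) had 0, 2 and 2 counts in Gata2 KO, against 0, 1 and 6 counts in Gata2 f/f. A count of 0 allows up to 0.143 CPM in Gata2 KO 1, 0.171 CPM in Gata2 f/f 1 and, for Gata2 f/f 2, 0.134 CPM, taking 3 counts as the limit. These limits cover counting error only, and neither gene passed the low-count filter. Without that filter all 10 members were fitted, and 0 were called. At this depth no difference in either gene was detectable.

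Max, the partner shared by the MYC and MXD proteins, was the steadiest member across the 6 libraries. Max (ENSMUSG00000059436.12; chromosome 12, 76937269 to 76962201, minus strand) had 122, 140.0 and 109 CPM in Gata2 KO 1, 2 and 3, against 119, 127 and 145 CPM in Gata2 f/f. The genotype ranges overlap, with the lowest library in Gata2 KO and the highest in Gata2 f/f, both numbered 3. Its log2 fold change was -0.076 ± 0.21 (edgeR, adjusted p = 1.00), and -0.18 ± 0.25 without the library labelled Gata2 KO 2.

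Among the 4 MXD genes, Mxd1, Mxd3 and Mxd4 were higher in Gata2 KO within every number and Mxi1 was not. Each encodes a MAX partner with a SIN3-binding domain, and MXD1 is the member best known from terminal myeloid differentiation. The RefSeq promoter windows of the 3 that were higher in Gata2 KO within every number are shown here, from 250 bases before to 50 bases after the annotated start (GRCm38.p6), with every CACGTG and every GATAA (or TTATC, its reverse complement) in capitals. CACGTG is the site of the network itself, and GATAA is the core of the sequence bound by GATA factors.
Mxd1, chr6:86669110-86669409, minus strand: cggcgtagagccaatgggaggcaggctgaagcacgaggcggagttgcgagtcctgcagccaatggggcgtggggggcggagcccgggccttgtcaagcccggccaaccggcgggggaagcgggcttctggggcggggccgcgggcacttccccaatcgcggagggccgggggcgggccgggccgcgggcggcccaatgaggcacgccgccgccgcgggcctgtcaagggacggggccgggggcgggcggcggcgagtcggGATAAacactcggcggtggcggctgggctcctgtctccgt
Mxd3, chr13:55329682-55329981, minus strand: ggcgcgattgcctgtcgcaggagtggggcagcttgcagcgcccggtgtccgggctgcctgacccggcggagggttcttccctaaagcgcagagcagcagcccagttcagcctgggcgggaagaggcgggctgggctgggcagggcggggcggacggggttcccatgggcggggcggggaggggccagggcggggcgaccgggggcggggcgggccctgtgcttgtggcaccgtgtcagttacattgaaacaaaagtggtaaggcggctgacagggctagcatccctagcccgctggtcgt
Mxd4, chr5:34187661-34187960, minus strand: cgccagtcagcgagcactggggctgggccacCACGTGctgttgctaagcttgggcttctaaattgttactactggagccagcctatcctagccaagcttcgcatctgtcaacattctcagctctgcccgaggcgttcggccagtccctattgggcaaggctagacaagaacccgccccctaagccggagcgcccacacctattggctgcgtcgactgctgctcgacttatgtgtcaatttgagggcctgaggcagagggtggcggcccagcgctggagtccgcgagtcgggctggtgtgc

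Of these windows, that of Mxd4 holds a CACGTG, whose first base lies at -219 from the start, and that of Mxd1 holds a GATAA whose first base is base 11 from the start, counted from 1. The Mxd3 window holds neither sequence. RefSeq windows were matched for 9 of the 10 members, all but Myc. Of the 9 members, Mxd1 alone holds a GATAA, and 4 hold a CACGTG: Mxd4, Max, Mnt and Mlx. In Max, the partner common to the network, the site spans the annotated start, and in Mlx and Mnt its first base lies at -40 and -123. The 60 bases around these sites are given to compare their flanks, with CACGTG in capitals.
Max, chr12:76962219-76962278, minus strand: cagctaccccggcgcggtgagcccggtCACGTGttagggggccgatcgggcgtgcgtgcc
Mlx, chr11:101087223-101087282, plus strand: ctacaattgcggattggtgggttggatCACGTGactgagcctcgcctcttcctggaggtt
Mnt, chr11:74830774-74830833, plus strand: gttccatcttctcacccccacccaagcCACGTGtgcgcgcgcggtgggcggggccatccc

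For comparison, CACGTG was found in 7.15% of all 32851 promoter windows, and in at least 1 window of 11.8% of the 9852 tested genes with a window. GATAA on either strand was found in 25.4% of windows and in 19.6% of those genes. The letters are a description of these windows and not a measurement of binding.

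Mxd1 (ENSMUSG00000001156.9; chromosome 6, 86647042 to 86669161, minus strand) had 59.1, 41.5 and 72.7 CPM in Gata2 KO 1, 2 and 3, against 28.7, 33.8 and 41.9 CPM in Gata2 f/f 1, 2 and 3. The ranges touch only where the library labelled Gata2 KO 2 lies just below Gata2 f/f 3. The means were 57.7 ± 15.7 CPM in Gata2 KO and 34.8 ± 6.66 CPM in Gata2 f/f (SD, n = 3 each). Its log2 fold change was 0.73 ± 0.28 (edgeR, adjusted p = 1.00), a 1.66-fold difference that did not pass. Leaving out the library labelled Gata2 KO 2, it was 0.91 ± 0.29 (adjusted p = 0.915), and over 16 other settings it ran from 0.50 to 0.91, positive in each, with adjusted p from 0.150 to 1.00. In numbers 1, 2 and 3, the paired libraries differed on the log2 scale by 1.04, 0.29 and 0.79. The late neutrophil sum moved with Mxd1: both were highest in Gata2 KO 3 and lowest in Gata2 f/f 1, and the part of these cells in the result was not tested.

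Mxd3, which is expressed mainly in dividing cells, had the lowest level of the MXD genes. Mxd3 (ENSMUSG00000021485.13; chromosome 13, 55325168 to 55329823, minus strand) had 8.98, 8.25 and 12.1 CPM in Gata2 KO 1, 2 and 3, against 6.27, 5.93 and 6.97 CPM in Gata2 f/f. Every Gata2 KO library lay above every Gata2 f/f library, a layout shared by 2.64% of all genes tested. The log2 fold change was 0.62 ± 0.28 (edgeR, adjusted p = 1.00), and 0.72 ± 0.33 without the library labelled Gata2 KO 2. Its exons share 105 bases, 4.43% of their length, with Prelid1 on the opposite strand, and the sources used here do not say whether counting used strand. Prelid1, a mitochondrial lipid-transfer protein gene, was far more abundant, with 567, 569 and 1160 CPM in Gata2 KO 1, 2 and 3, against 417, 439 and 679 CPM in Gata2 f/f. Its genotype ranges overlap, with Gata2 f/f 3 above Gata2 KO 1 and 2. Prelid1 was higher in Gata2 KO within every number, with a log2 fold change of 0.58, near that of Mxd3. The part of Prelid1 reads in the Mxd3 count was not tested.

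Mxd4 was highest in the library numbered 3 of each genotype. Mxd4 (ENSMUSG00000037235.13; chromosome 5, 34173883 to 34187720, minus strand) had 77.9, 61.2 and 149 CPM in Gata2 KO 1, 2 and 3, against 53.3, 50.3 and 87.6 CPM in Gata2 f/f. Gata2 KO 3 was the highest, and Gata2 f/f 3 lay above Gata2 KO 1 and 2. The log2 fold change was 0.59 ± 0.39 (edgeR, adjusted p = 1.00), 0.83 ± 0.40 without the library labelled Gata2 KO 2, and 0.10 when Gata2 KO 3 was left out. In numbers 1, 2 and 3 the paired log2 differences were 0.55, 0.28 and 0.77. With the number as a block, Mxd1 (unadjusted p = 0.0114), Mxd4 (0.0192) and Mxd3 (0.0357) were the 3 members with an unadjusted p under 0.05 in edgeR's test, against 7.41% of all genes that were marked as higher in Gata2 KO. No member was marked as lower, against 3.3% of all genes. Their adjusted p-values were 0.403, 0.418 and 0.443.

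Mxi1, the remaining MXD gene, showed no steady direction. Mxi1 (ENSMUSG00000025025.13; chromosome 19, 53310518 to 53375810, plus strand) had 81.8, 62.7 and 71.7 CPM in Gata2 KO 1, 2 and 3, against 58.4, 76.97 and 65.3 CPM in Gata2 f/f. The groups overlap over most of their ranges. Its log2 fold change was 0.11 ± 0.22 (edgeR, adjusted p = 1.00), and 0.19 ± 0.27 without the library labelled Gata2 KO 2. It was -0.016 when Gata2 KO 1 was left out and -0.032 when Gata2 f/f 1 was.

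**Figure D2:**
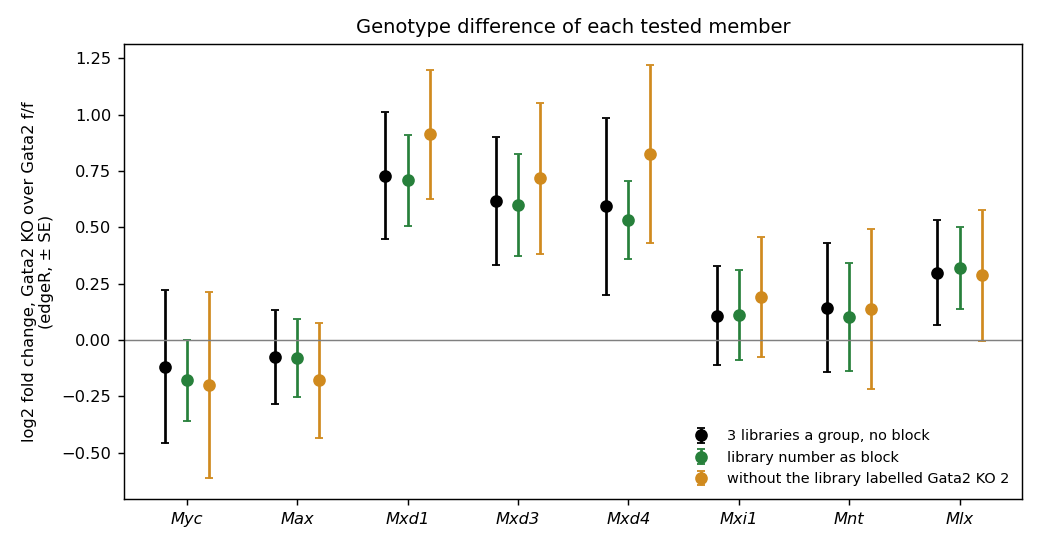
Log2 fold change of Gata2 KO over Gata2 f/f for each tested member with its standard error from edgeR, with 3 libraries a group and no block, with the library number as a block, and without the library labelled Gata2 KO 2. Mxd1, Mxd3 and Mxd4 lie between 0.53 and 0.91 in the 3 fits, and no value passed the threshold.

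Mnt, the broadly expressed MAX partner that opposes MYC in dividing cells, had paired differences of both signs. Mnt (ENSMUSG00000000282.12; chromosome 11, 74830920 to 74845725, plus strand) had 74.6, 56.7 and 38.2 CPM in Gata2 KO 1, 2 and 3, against 53.7, 44.2 and 55.5 CPM in Gata2 f/f. Gata2 KO held both the highest and the lowest library. The log2 fold change was 0.14 ± 0.29 (edgeR, adjusted p = 1.00), 0.14 ± 0.36 without the library labelled Gata2 KO 2 and -0.12 when Gata2 KO 1 was left out. In numbers 1, 2 and 3 the paired log2 differences were 0.47, 0.36 and -0.54.

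Mlx, the partner of the MondoA branch, had the narrowest Gata2 KO range for its level. Mlx (ENSMUSG00000017801.15; chromosome 11, 101087277 to 101092207, plus strand) had 55.5, 58.3 and 60.0 CPM in Gata2 KO 1, 2 and 3, against 36.0, 55.3 and 49.99 CPM in Gata2 f/f. The groups do not overlap, but Gata2 KO 1 and Gata2 f/f 2 were nearly equal and Gata2 f/f 1 stood low. The log2 fold change was 0.30 ± 0.23 (edgeR, adjusted p = 1.00), 0.29 ± 0.29 without the library labelled Gata2 KO 2 and 0.090 when Gata2 f/f 1 was left out. Its exons share 385 bases, 19.3% of their length, with Psmc3ip on the opposite strand, a recombination factor gene at 14.9 to 25.3 CPM in Gata2 KO and 19.2 to 25.2 CPM in Gata2 f/f. That gene's log2 fold change was -0.024.

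With all libraries and no block, the 3 other MLX and MAX partners had negative log2 fold changes, and the 2 best-known MLX targets positive ones. Without Gata2 KO 3, 2 of the 3 partners were positive and both targets negative. Mga, a large MAX partner of repressive complexes, had 72.6, 56.7 and 23.7 CPM in Gata2 KO 1, 2 and 3, against 87.9, 56.3 and 45.9 CPM in Gata2 f/f (log2 fold change -0.31 ± 0.44; -0.40 ± 0.54 without the library labelled Gata2 KO 2). It was lowest in both libraries numbered 3, as Myc was. Mlxip, which encodes MondoA, had -0.11 ± 0.30, and Mlxipl, at no more than 1.01 CPM, had -0.19 ± 0.49. Txnip, the MondoA target that restrains glucose uptake, had 44.3, 44.8 and 57.9 CPM in Gata2 KO and 29.6, 28.5 and 83.7 CPM in Gata2 f/f. In numbers 1, 2 and 3, its paired libraries differed on the log2 scale by 0.58, 0.65 and -0.53. Arrdc4, its arrestin relative, had 12.8, 13.5 and 26.6 CPM in Gata2 KO and 10.1, 9.86 and 26.2 CPM in Gata2 f/f (0.19 ± 0.49). It was highest in number 3 of each genotype, and its paired log2 differences were 0.33, 0.45 and 0.023. All 5 had adjusted p = 1.00 in edgeR's test.

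Between the 2 libraries of each number, 4 of the 8 tested members (Mlx, Mxd1, Mxd3 and Mxd4) were higher in Gata2 KO in all 3 comparisons, against 20.7% of all genes tested. No member was lower in all 3, against 17.7% of all genes. Of the 8, 2 (Mlx and Mxd3) had genotype ranges that do not overlap with Gata2 KO higher, and 0 with Gata2 KO lower, against 2.64% and 2.78% of all genes. These counts and shares include the library labelled Gata2 KO 2, whose Gata2 count contradicts its label, and were not repeated without it.

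**Figure D3:**
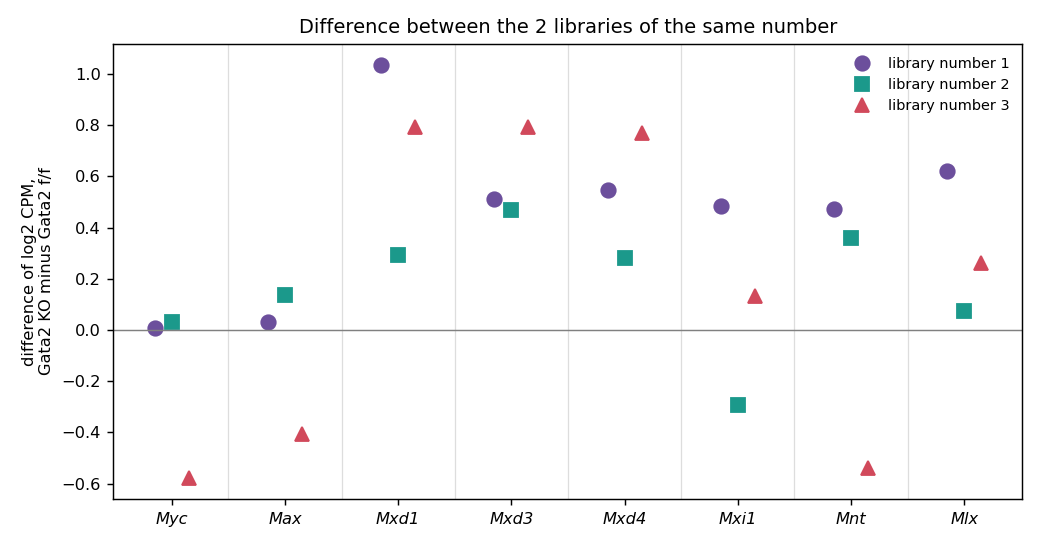
Difference of log2 CPM, Gata2 KO minus Gata2 f/f, between the libraries of the same number, for each tested member. Mxd1, Mxd3, Mxd4 and Mlx lie above 0 in all 3 numbers, while Myc lies at 0.0065 and 0.030 in numbers 1 and 2 and at -0.58 in number 3.

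The library number was itself tested with genotype kept in the model. Mxd4 differed between numbers (edgeR, adjusted p = 0.0481), as did 9.09% of all genes tested. It was the 1 member called of 8. Averaged over both genotypes, Mxd4 was at 118 CPM in the libraries numbered 3 and at 60.7 CPM in the other 4. Myc averaged 121 CPM in the libraries numbered 3 and 202 CPM in the other 4, and missed the threshold (adjusted p = 0.0982). Both libraries numbered 3 lay below the other 4 at 20.4% of all genes, Myc being the 1 member, and above them at 21.1%, Mxd4 being the 1 member. What a number denotes is not stated in the labels. Monocyte and macrophage markers were highest in the same libraries, and their part was not tested.

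Levels of different genes were compared per exon length, in CPM per kb. In Gata2 KO the order was Myc (61.6 ± 23.4), Max (34.4 ± 4.32), Mlx (29.0 ± 1.12), Mnt (12.2 ± 3.94), Mxd4 (11.3 ± 5.52), Mxi1 (10.6 ± 1.40), Mxd1 (8.17 ± 2.21) and Mxd3 (4.13 ± 0.874). In Gata2 f/f it was Myc (66.9 ± 13.7), Max (36.3 ± 3.61), Mlx (23.6 ± 4.98), Mnt (11.1 ± 1.31), Mxi1 (9.81 ± 1.38), Mxd4 (7.52 ± 2.44), Mxd1 (4.93 ± 0.941) and Mxd3 (2.70 ± 0.224). By mean ± SD, the neighbours from Mnt to Mxd1 overlap in both genotypes, and so do Myc with Max and Max with Mlx in Gata2 KO. Mycn and Mycl lay below 0.1 CPM per kb in both genotypes.

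Among transcripts of the MAX partners measured here, Myc held most in every library but Gata2 KO 3. Taking Myc, Mycn, Mycl, the 4 MXD genes and Mnt per exon length, Myc made up 62.1%, 64.1% and 40.8% in Gata2 KO 1, 2 and 3, against 70.8%, 66.2% and 56.6% in Gata2 f/f 1, 2 and 3. The share was lower in the Gata2 KO library of each number, by the least in number 2. The 4 MXD genes made up 25.5%, 24.3% and 49.7% in Gata2 KO, against 18.9%, 24.3% and 30.5% in Gata2 f/f. The ratio of MXD and Mnt to Myc transcripts was 0.609, 0.559 and 1.45 in Gata2 KO, against 0.411, 0.511 and 0.764 in Gata2 f/f. In number 2, whose Gata2 KO library has a Gata2 count that contradicts its label, these shares were nearly equal between genotypes. In Gata2 KO 3 alone the antagonists outweighed Myc. The ratio has no test, since the members were chosen with results known, and transcript shares say nothing of protein.

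**Figure D4:**
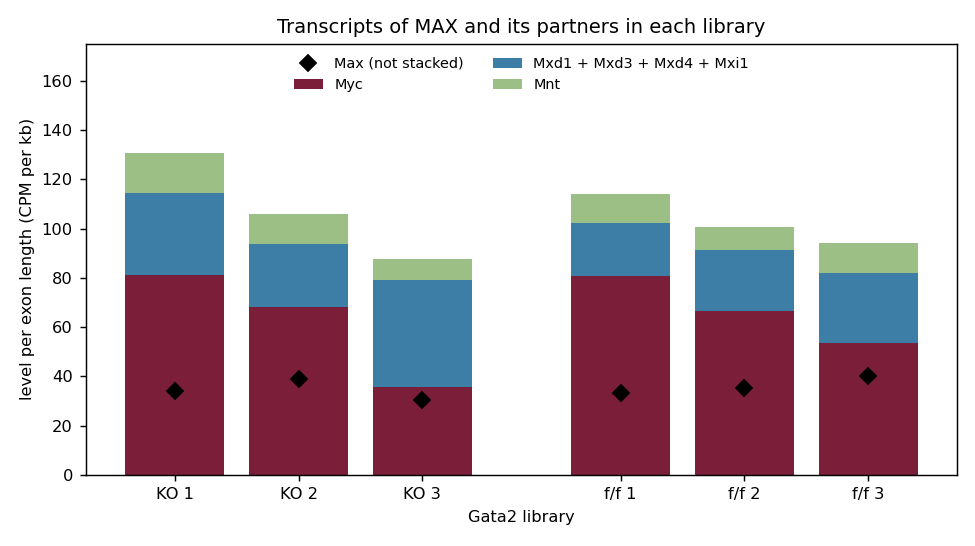
Stacked levels per exon length of Myc, the sum of Mxd1, Mxd3, Mxd4 and Mxi1, and Mnt in each library, in CPM per kb; diamonds give Max. The MXD part is 33.3, 25.8 and 43.5 CPM per kb in Gata2 KO 1, 2 and 3, against 21.6, 24.5 and 28.8 in Gata2 f/f 1, 2 and 3.

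Genes that Myc activates, mostly of ribosome biogenesis, chaperones and nucleotide synthesis, had more negative than positive log2 fold changes. Of the 60 listed, 59 were tested (Wdr74 is listed at 0 in all 6 libraries), and 44 of the 59 had a negative log2 fold change, with a median of -0.17 against 0.021 over all genes tested. None was called (edgeR, adjusted p = 1.00 for the genes named), and 0 had an unadjusted p under 0.05, against 1.24% of all genes. With the number as a block, edgeR marked 9 of the 59 as lower at an unadjusted p under 0.05, against 3.3% of all genes, and 0 as higher, against 7.41%, and again called none. Within every number, 20 of the 59 were lower in Gata2 KO, against 17.7% of all genes, and 5 were higher, against 20.7%. The lists, like the members, were chosen with earlier results of these data known, so such counts are descriptions and not tests. The mean log2 difference over the list was -0.29, -0.026 and -0.24 for numbers 1, 2 and 3, and 13, 32 and 19 of the 59 genes were higher in Gata2 KO. Number 2 thus showed no balance towards lower values, since 54.1% of all genes were higher there. The 11 tested late neutrophil markers had mean log2 differences of 2.01, 0.043 and 1.38 in numbers 1, 2 and 3, and their part in the result was not tested. Leaving out 1 library at a time, the list's median ran from -0.36 without Gata2 f/f 3 to -0.028 without Gata2 KO 3. It was -0.28 when Gata2 KO 1 was left out and -0.30 when the library labelled Gata2 KO 2 was.

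The Myc-activated genes of smallest p were Ccnd2, Ndufaf4, Hspd1 and Mat2a. Ccnd2, which encodes cyclin D2, had 36.8, 55.7 and 119.8 CPM in Gata2 KO 1, 2 and 3, against 106, 95.8 and 206 CPM in Gata2 f/f, lower in Gata2 KO within every number. Its log2 fold change was -0.94 ± 0.50, and DESeq2 with the number as a block called it (adjusted p = 0.00229), but edgeR with the block did not (adjusted p = 0.388). Without the library labelled Gata2 KO 2 and with the block, 0 Myc-activated genes were called. Hspd1, the mitochondrial chaperonin, had 656, 872 and 350.3 CPM in Gata2 KO, against 1009, 1059 and 691 CPM in Gata2 f/f (-0.55 ± 0.37). Ndufaf4, a complex I assembly factor gene, had -0.41 ± 0.25, and Mat2a, which makes S-adenosylmethionine, had -0.41 ± 0.27. Both libraries numbered 3 lay below the other 4 for 29 of the 59 genes, against 20.4% of all genes.

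Genes that Myc represses lay mostly the other way. All 15 were tested, 12 had positive values, and the median log2 fold change was 0.20. None was called, and 7 were higher in Gata2 KO within every number, against 20.7% of all genes. The list also followed the library number. Both libraries numbered 3 lay above the other 4 for 9 of the 15 genes, against 21.1% of all genes. In edgeR's test of the number, 4 of the 15 had an adjusted p under 0.05, against 9.09% of all genes. Leaving out 1 library at a time, the median ran from -0.13 without Gata2 KO 3 to 1.02 without Gata2 f/f 3. It was -0.039 when Gata2 f/f 1 was left out, 0.023 when Gata2 f/f 2 was and 0.42 when the library labelled Gata2 KO 2 was. With the number as a block, edgeR marked 5 as higher at an unadjusted p under 0.05, against 7.41% of all genes. In the fit without a block it marked 1, Cdkn1c. Cebpd, a myeloid transcription factor gene, had 110.0, 56.5 and 180.3 CPM in Gata2 KO 1, 2 and 3, against 63.9, 45.0 and 83.1 CPM in Gata2 f/f (0.85 ± 0.44). Cdkn1c, the p57 cell cycle inhibitor gene, had 1.43, 0.814 and 3.40 CPM in Gata2 KO and 0.171, 0.446 and 0.916 CPM in Gata2 f/f (1.85 ± 0.75). Its counts were low, at 30, 15 and 81 in Gata2 KO and 3, 10 and 23 in Gata2 f/f. Gata2 f/f 1 thus lay at the limit of 3 counts. Ndrg1, a stress and differentiation gene, had 0.72 ± 0.48, and Cdkn1b, the p27 inhibitor gene, had 0.44 ± 0.32. Several of these genes are also induced by p53 or in mature myeloid cells, so the list is not a measure of Myc alone.

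No gene of the machinery around the network passed the test. Of 14 tested Myc cofactors, 10 had positive values (median 0.13). This balance rests on single libraries: 2 were positive when Gata2 KO 1 was left out (median -0.22), 12 when Gata2 KO 3 was (0.38) and 5 when Gata2 f/f 3 was (-0.094). With the number as a block 7 were positive (median -0.013). The leading ones were the acetyltransferase gene Crebbp (0.50 ± 0.41) and Kat5 of the TIP60 complex (0.22 ± 0.22), with the helicase gene Ruvbl1 (-0.29 ± 0.34) and the histone-methylation adaptor Wdr5 (-0.19 ± 0.23) the other way. Of 9 SIN3 and histone deacetylase genes, 3 had positive values (median -0.059). Sin3b, the scaffold that MXD proteins bind, had 0.34 ± 0.26, while the deacetylase gene Hdac2 had -0.42 ± 0.31 and the histone-binding genes Rbbp4 and Rbbp7 had -0.34 ± 0.34 and -0.30 ± 0.31. Of 17 genes acting on Myc protein turnover or activity, 9 had positive values (median 0.030). Bin1, a Myc-interacting adaptor, had 0.41 ± 0.35, the kinase gene Gsk3a 0.24 ± 0.21, and the phosphatase inhibitor genes Set and Cip2a -0.31 ± 0.30 and -0.52 ± 0.52. Without Gata2 KO 1 the medians of the corepressor and turnover lists were -0.36 and -0.16. None of these genes was called by edgeR, and with all 6 libraries and no block none of the 3 lists held a gene with an unadjusted p under 0.05. With the number as a block, edgeR's unadjusted p was 0.0396 for Crebbp, 0.0267 for Hdac2, 0.0455 for Bin1 and 0.0212 for Cip2a, with adjusted p from 0.421 to 0.459.

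**Figure D5:**
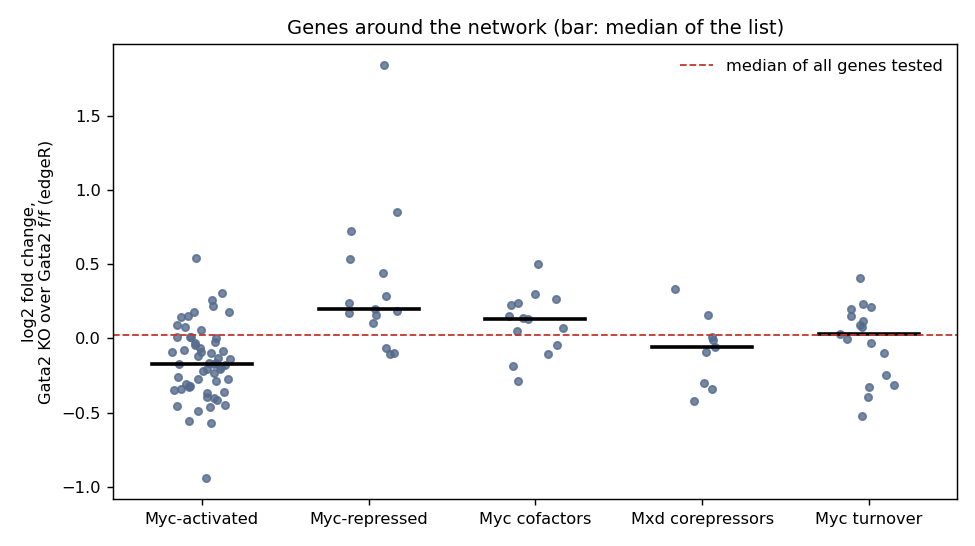
Log2 fold change (edgeR, 3 libraries a group) of each tested gene in 5 lists around the network; black bars are list medians and the dashed line is the median of all genes tested, 0.021. The median is -0.17 for Myc-activated genes and 0.20 for Myc-repressed genes, and no gene passed the threshold.

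The genes most like each member across the 6 libraries were found by the root mean square difference of centred log2 CPM, among protein-coding genes with a mean of at least 5 CPM. These are descriptions over 6 libraries that differ in genotype, number and depth. Myc, with a root mean square spread of 0.41, had Rab3gap2 (0.035) and Pitrm1 (0.040) among its nearest genes. Max, with a spread of 0.14, lay nearest to Nr2c1, Zfp706 and Mmgt2 (0.025 to 0.046). Mxd1, with a spread of 0.45, had no neighbour as close, and its nearest were Dap, Otud3 and Klhl36 (0.099 to 0.11). Mxd4, with a spread of 0.53, lay nearest to March2 (0.045), Vim (0.065) and Amdhd2 (0.069). Mxd3 lay nearest to Bet1l, Bcl7c and Nol12 (0.053 to 0.083) and Mxi1 to Tnfaip8, Inpp1 and Arsa (0.063 to 0.083). Mnt lay nearest to P2ry2, Efcab14 and Dgkq (0.056 to 0.060), and Mlx to Eno1b, Rab31 and Tor1a (0.089 to 0.10). Between members, Mxd1 and Mxd3 were the closest pair (0.18) and Myc and Mxd4 the farthest (0.90).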

How the data were processed

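The authors deposited 1 table of raw counts per gene, with 1 column per sample. Per the submitters' processing notes, kallisto, HTSeq, DESeq2 and mm10 were used, with no role or version, while for the annotation and the strand setting the sources used here give nothing. Per the labels' protocols, libraries were made from poly(A) RNA and read as pairs of 90 bp. Of 49585 identifiers, 49326 matched GENCODE release M21 (GRCm38) without the version, and 259 rows without a match carried 0.00962% of all counts. Symbols, coordinates and exon lengths (union of all exons) come from that annotation, and promoter sequences from RefSeq (GRCm38.p6).

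The low-count filter filterByExpr with a minimum count of 10 retained 13744 genes and 99.9% of the counts. Counts were scaled by TMM and compared by edgeR 4.0.16 (quasi-likelihood, robust, R 4.3.3) over the whole table, with no block term. P-values were adjusted by Benjamini-Hochberg and called under 0.05. Log values used a prior count of 2. Standard errors come from the F statistic. DESeq2 1.42.0 and limma 3.58.1 were alternatives. The fit was tested on simulated data. The simulated counts held no effect of library number and no contradicted label, so that run does not speak to either.

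Groups and numbers were taken from the sample titles. As a check of pairing, each library was centred on its group (log2 CPM), and equal numbers then correlated at 0.29, 0.55 and 0.65 for numbers 1, 2 and 3. All exceeded 0.1, so equal numbers were treated as pairs in the differences within a number and in the fits with a block. The main fit of genotype has no such term, so its p-values do not use the pairing. Gata2 f/f 1 correlated more with Gata2 KO 2 (0.46) than with Gata2 KO 1, and Gata2 KO 1 also correlated with Gata2 f/f 2 (0.104). The check thus sets number 3 apart but does not settle which libraries numbered 1 and 2 belong together. The labels do not name separate leukaemias, so the p-values refer to the spread of these samples, which may be technical. None of the libraries was a duplicate (chi-square per degree of freedom at least 35.5 between any pair). The closest pair, at 35.5, was the library labelled Gata2 KO 2 with Gata2 f/f 1. That library was at 71.6 and 200 with Gata2 f/f 2 and 3, and at 147 and 299 with Gata2 KO 1 and 3.

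The members and lists were chosen with earlier results of these data known. Named genes were the members, 3 further partners, Txnip and Arrdc4, the 4 genes of smallest p in each pathway list, the 3 genes most like each member, Gata2, and marker lists as sums. Prelid1 and Psmc3ip were named because their exons overlap members, after their values were seen. One result under this rule is not reported here.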

Additional observations from a re-analysis of the deposited data

How the results depend on the processing

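No member was called under any of the 16 alternatives. With DESeq2 7 genes were called in the whole table, with DESeq2 and the replicate block 222 genes and 1 Myc-activated gene (Ccnd2), and without the library labelled Gata2 KO 2 but with the replicate block 54 genes. With edgeR and the replicate block 0 genes, 0 members and 0 Myc-activated genes were called, and leaving out each library in turn gave 0 to 0 for all 3 counts; at an unadjusted p under 0.05, edgeR without a block marked 171 genes. The block changed no call of a member. Of the 128 alternative values of members, 122 kept their direction. Leaving out each library in turn, log2 fold changes ran from -0.38 to 0.13 for Myc, from -0.18 to -0.014 for Max, from 0.50 to 0.91 for Mxd1, from 0.41 to 0.72 for Mxd3, from 0.10 to 0.86 for Mxd4, from -0.032 to 0.22 for Mxi1, from -0.12 to 0.34 for Mnt and from 0.090 to 0.43 for Mlx. Max turned to 0.056 without both libraries numbered 3, and Mnt to -0.036 without the library labelled Gata2 KO 2 with the replicate block; the cause was not tested. Depth limits only Mycn and Mycl, with at most 11 counts in a library. The scaling alternatives turned no member's direction.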
